A study of Mus musculus with 3 samples.

Results

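The OAS, IFIT and related antiviral effectors, 10 genes in all, were followed through 3 lines of mouse OP9 stromal cells: Ifit1, Ifit2, Ifit3, Oas1a, Oas2, Oas3, Oasl1, Oasl2, Isg15 and Rsad2. They were found by gene symbol, and the list itself was chosen on the differences in intensity between these 3 arrays, so every value of the members is a description and no test was made on it. Of the 10 genes 9 have a named probe, 1 each, among the 16390 genes named on the array, and no probe carried the symbol Isg15 or one of its older names. All 9 had a value on the OP9 array, 7 had one on all 3 arrays, and 6 were bright enough on average to be compared.

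The OP9 line comes from the calvaria of newborn mice of the B6C3Fe-a/a background homozygous for Csf1op, the osteopetrotic mutation that removes macrophage colony-stimulating factor. The first group was parental OP9, labelled as the control. In the second, OP9-GFP, the cells expressed green fluorescent protein, and in the last, OP9-DL, they expressed the same protein and the Notch ligand Delta-like 1. All 3 groups were grown in one medium with serum, none was treated, and each was read on 1 one-colour array. Whether the 2 modified lines are clones or pools, and the vector used, were not given in the sources used here.

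With 1 array per line no difference below has a replicate check, an error or a p-value. A difference between 2 arrays can come from the line or from the culture, and these cannot be told apart. Intensities are on the authors' linear scale, in which the median probe of each array reads 20. A probe was compared where it had a value on all 3 arrays and its mean log2 intensity reached the 25th percentile of all such probes, an intensity of 6.13, called the brightness limit below. A probe's intensity depends on its sequence, so levels were set against each other between arrays and never between genes.

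These genes are the working end of the type I interferon response. Interferon binds a receptor pair, Ifnar1 and Ifnar2, whose kinases activate Stat2. With Irf9 it takes part in a complex that binds a short element, the interferon-stimulated response element, in the promoters of the effectors. The OAS enzymes sense double-stranded RNA and make 2′-5′-linked oligoadenylates that switch on the nuclease RNase L. The IFIT proteins bind viral RNA and hold back its translation, Isg15 is a ubiquitin-like protein joined to other proteins, and Rsad2, or viperin, makes a nucleotide analogue that stops viral polymerases.

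The promoter stretches that hold the core of this element are shown because 6 of the 9 members with a promoter window hold it. The motif was not used to choose the members. They belong to the effectors named above as carrying this element, so their share is a description and no independent result. RefSeq promoter windows of build GRCm38.p6, which run from 250 bases before to 50 after the annotated start, were found for 9 of the 10 members, all but Oas2, and Ifit2 has 2 annotated starts. They were searched on both strands for the element's core, GAAA followed after any 2 bases by another GAAA, and matches can overlap each other. Of the 9 members 6 hold at least 1 match, against 3.44% of all 32851 promoter windows of the same length. Capitals mark the matches, and TTTC with any 2 bases before another TTTC is the same core on the other strand.
Ifit3, chr19:34583353-34583436, plus strand: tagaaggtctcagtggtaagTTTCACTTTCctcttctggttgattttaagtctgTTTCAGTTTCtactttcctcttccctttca
Ifit1, chr19:34640765-34640833, plus strand: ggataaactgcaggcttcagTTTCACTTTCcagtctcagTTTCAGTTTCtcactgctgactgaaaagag
Oas1a, chr5:120907526-120907565, minus strand: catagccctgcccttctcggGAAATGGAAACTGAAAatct
Oas3, chr5:120777705-120777754, minus strand: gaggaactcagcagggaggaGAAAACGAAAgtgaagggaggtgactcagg
Isg15, chr4:156200855-156200916, minus strand: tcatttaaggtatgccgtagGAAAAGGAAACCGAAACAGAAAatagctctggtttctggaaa
Rsad2, chr12:26456543-26456592, minus strand: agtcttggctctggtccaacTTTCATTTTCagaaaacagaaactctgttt

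Ifit1 and Ifit3 each hold 2 separate matches, the first beginning 104 bases before the start in Ifit1 and 156 in Ifit3. The 2 matches of Oas1a overlap and end 5 bases before the start, and the 3 of Isg15 overlap in one run that begins 78 bases before it. Oas3 and Rsad2 hold 1 match each. Oasl1, Oasl2 and both starts of Ifit2 have no match, which says only that these letters are not in those windows. The gamma-activated site TTCNNNGAA is found in 8.3% of all windows and in 2 members, Ifit2 and Oas1a.

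**Figure D1:**
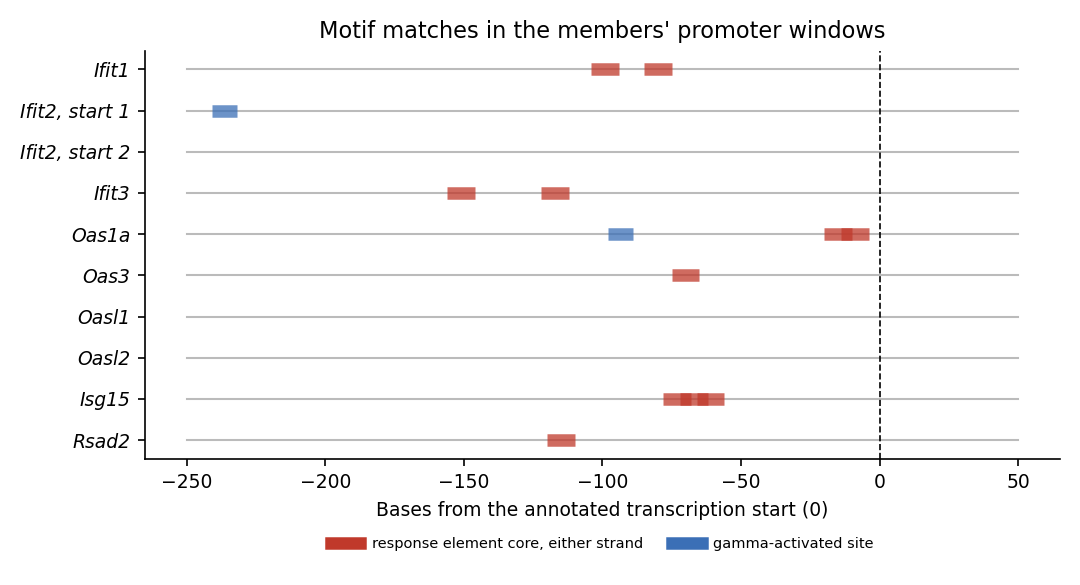
Matches in the promoter windows of 9 members, with the distance in bases from the annotated transcription start on the horizontal axis and 1 line per annotated start. Red blocks are matches to the response element core on either strand and blue blocks are matches to TTCNNNGAA; the red matches all lie within 156 bases before the start, and Oasl1, Oasl2 and both Ifit2 starts carry none.

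The 4 OAS members with a bright probe all read highest on the parental array. Oas1a, an oligoadenylate synthetase, stood at an intensity of 1299 in OP9, 64.6 in OP9-GFP and 138 in OP9-DL. The parental reading was thus 20.1-fold above OP9-GFP and 9.41-fold above OP9-DL, and OP9-DL was 2.14-fold above OP9-GFP. Oas1a has a close relative, Oas1g, with no probe named for it: all 40 bases shown for Oas1a are also in the Oas1g promoter window. The probe sequences were not used here, so how far a probe reads a relative was not tested.

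Oas2, a larger synthetase of the same kind, read 295.7 on OP9, 7.9 on OP9-GFP and 12.6 on OP9-DL. It was 37.4-fold and 23.5-fold higher on the parental array than on the OP9-GFP and OP9-DL arrays, and all 3 readings were above the brightness limit. Oas3, the synthetase with 3 repeated domains, was dim: 6.3 on OP9, 1.1 on OP9-GFP and blank on OP9-DL. Only the parental reading reached the limit, so Oas3 allows no firm fold.

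The OAS-like genes showed the same order of parental above modified lines at smaller size. Oasl2, which keeps synthetase activity in the mouse, read 122.2 on OP9, 16.4 on OP9-GFP and 23 on OP9-DL, a parental excess of 7.45-fold and 5.31-fold. Oasl1, which lacks that activity and restrains translation of Irf7, read 45.1, 9.5 and 9 on the same arrays, an excess of 4.75-fold and 5.01-fold. For Oasl1 the modified lines were within 1.06-fold of each other.

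Of the 3 IFIT probes only that of Ifit3 was bright enough to be compared. Ifit3 read 269.5 on OP9, 5.4 on OP9-GFP and 10.6 on OP9-DL. It was 49.9-fold higher on the parental array than on OP9-GFP, the lowest difference of OP9-GFP minus OP9 among all 15581 probes compared, and 25.4-fold higher than on OP9-DL. The OP9-GFP reading lay under the brightness limit, and with it raised to the limit the excess was 44.0-fold. Ifit3b, a relative without a named probe, holds all 84 bases shown for Ifit3 in its own promoter window, and its share in the Ifit3 reading was not tested.

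Ifit1 and Ifit2 were close to the lower end of the scale on all arrays. Ifit1 read 2.3 on OP9 and was blank on both modified lines. Ifit2 read 7.5 on OP9, 5.2 on OP9-GFP and 2.6 on OP9-DL, which puts only the parental reading above the limit. Its parental excess was 1.44-fold and 2.88-fold as deposited and 1.22-fold in both cases once dim readings were raised to the limit. The promoter window of Ifit1 holds the same pair of cores as that of Ifit3, TTTCACTTTC and TTTCAGTTTC.

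Rsad2 was the bright member that differed least. Its intensities were 61.8 on OP9, 43.9 on OP9-GFP and 53.4 on OP9-DL, within 1.41-fold of each other and well above the limit. The parental array again read highest, but a difference of this size is not set apart from the bulk of probes: 2844 of the 15581 compared lay lower for OP9-GFP minus OP9 and 5209 for OP9-DL minus OP9. Rsad2 has 1 response element core in its promoter window.

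**Figure D2:**
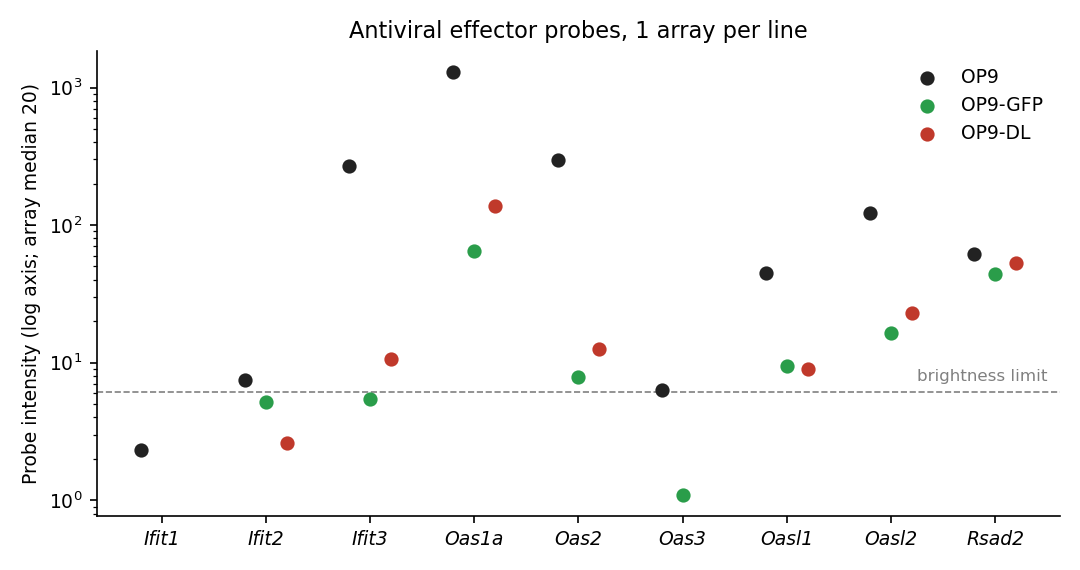
Intensity of each member's probe (log axis, median probe of an array at 20) on the OP9 (black), OP9-GFP (green) and OP9-DL (red) arrays; each point is 1 reading, blank readings have no point, and the dashed line is the brightness limit of 6.13. Black points lie highest for every gene; Ifit3, Oas1a and Oas2 have the widest gaps among members above the limit on average, and the Rsad2 points lie close together.

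The first comparison, of the GFP cells with the parental cells, asks what differs between the lines without Delta-like 1. Of the 6 members compared, 5 (Ifit3, Oas1a, Oas2, Oasl1 and Oasl2) were at least 2-fold lower on OP9-GFP and 0 higher, beside 6.75% lower and 4.86% higher of all 15581 probes. The members' median was -3.61 on the log2 scale and that of all probes 0.02. Since the members were picked with this contrast in view, the gap between these shares supports nothing. Ifit3 passed the brightness limit through the parental array and the OP9-DL array alone, while the other 5 lay above it on all arrays. With Ifit2 added, the 7 members measured on every array had a median of -2.90, and 5 of them were at least 2-fold lower, beside 6.69% of 20775 probes.

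In the second comparison, of the cells with Delta-like 1 with the parental cells, the same 5 members were at least 2-fold lower and 0 higher, beside 6.92% lower and 4.33% higher of all probes compared. Their median was -2.82 on the log2 scale and that of all probes 0.02. This comparison shares the parental array with the first, so the repetition adds no independent reading. Without the brightness limit Ifit2 joined the lower members, 6 of 7, beside 6.55% of 20775 probes.

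The third comparison asks what differs between OP9-DL and OP9-GFP, the lines that by their labels differ in the Notch ligand. Of the 6 members 1, Oas1a, was at least 2-fold higher on OP9-DL and 0 were lower, where 2.31% and 2.73% of all probes compared lay past 2-fold in those directions. Ifit3 was 1.96-fold higher and Oas2 1.60-fold higher. Oasl2 (1.40-fold) and Rsad2 (1.22-fold) were also on the higher side, and Oasl1 read 0.95 of its OP9-GFP level. The median of the 6 was 0.58 on the log2 scale, against -0.01 for all probes. The choice of a 2-fold threshold decides the count of higher members, which was 3 at 1.5-fold and 0 at 3-fold. No share of all probes was computed at those thresholds, so these counts show only that dependence.

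Among the 7 members measured on every array, 5 had the order OP9, OP9-DL, OP9-GFP from high to low, while Ifit2 and Oasl1 had OP9-DL lowest. Only the place of OP9 at the top was common to all 7. The differences between OP9-DL and OP9-GFP within this order rest on single readings, and for Ifit2 both lay under the brightness limit, where the difference of exactly 2-fold as deposited came to 0 with readings raised to the limit.

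**Figure D3:**
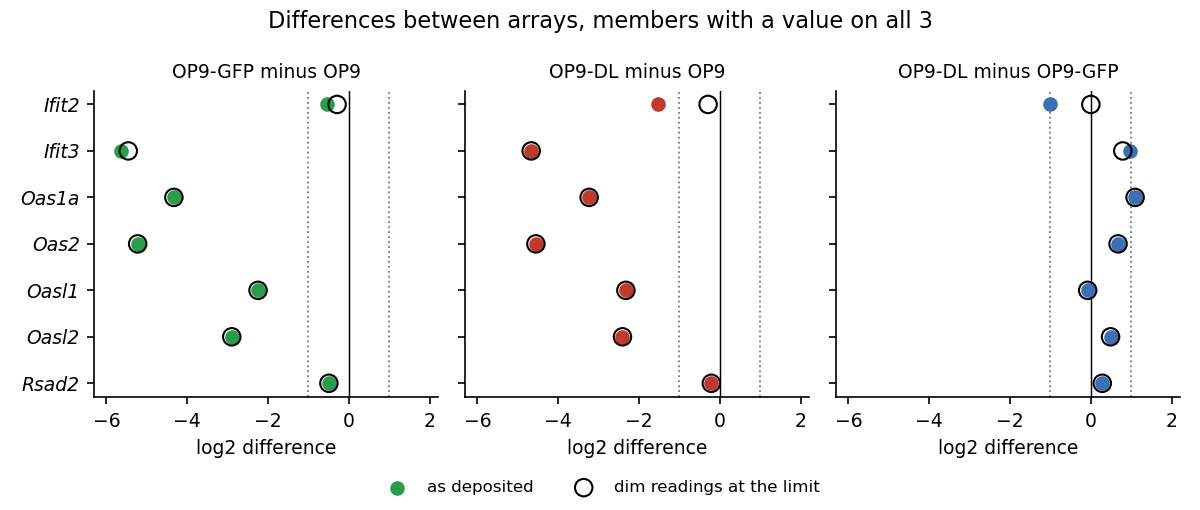
log2 differences between arrays for the 7 members with a value on all 3; filled points use the deposited intensities, open circles use readings raised to the brightness limit, and dotted lines mark 2-fold. In both panels against OP9, 5 members lie more than 2-fold lower under either treatment, Ifit2 moves inside 2-fold for OP9-DL minus OP9 once dim readings are raised, and only Oas1a passes 2-fold upwards in OP9-DL minus OP9-GFP.

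**Figure D4:**
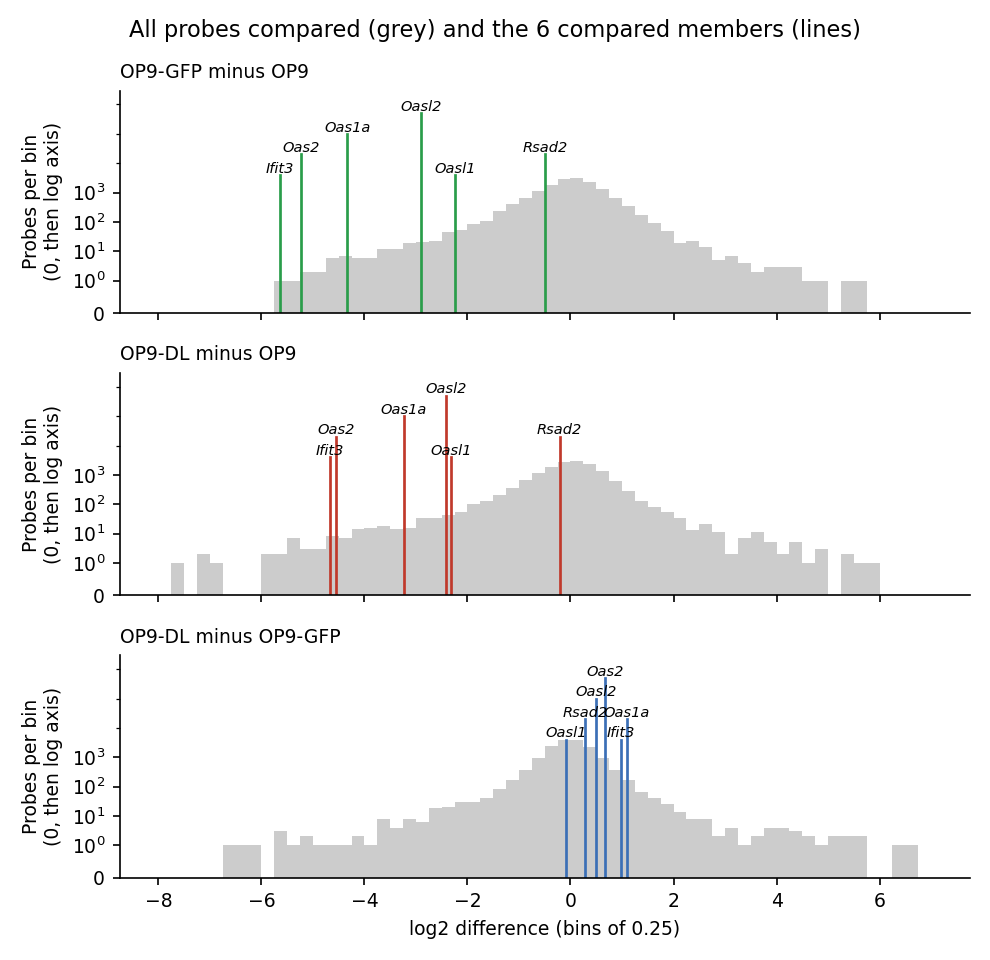
Number of probes per 0.25-wide bin of the log2 difference (vertical axis linear up to 1 and logarithmic above) for the 15581 probes compared, with the 6 compared members as labelled lines. In both comparisons with OP9, Ifit3, Oas2, Oas1a, Oasl2 and Oasl1 stand in the left tail and Rsad2 in the bulk; in OP9-DL minus OP9-GFP all 6 lie between -0.08 and 1.10.

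Other OAS and IFIT genes were sought from a list of 10 relatives, of which 5, all OAS genes, had a named probe and 2 were bright enough to compare. Both were lower on the modified lines. Oas1c read 50.6 on OP9, 5.1 on OP9-GFP and 6.8 on OP9-DL. Oas1b, the gene known for flavivirus resistance, read 42.6, 8.3 and 11.3. The remaining 3 were under the limit on every array: Oas1d (4.1, 1.3 and 3), Oas1f (6, 2.2 and 1.2) and Oas1h (2.3, 3.1 and 4.3, the only one not highest on OP9). No probe was named for Oas1e, Oas1g, the IFIT relatives or RNase L itself. The genes that hold the RNase L arm in check, Abce1 and Pde12, were not lower on the modified lines. Abce1, the RNase L inhibitor, read 76.8, 176.2 and 154.8, and was 2.29-fold higher on OP9-GFP than on OP9. Pde12, which breaks down oligoadenylates, read 105.2, 192.7 and 157.4.

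Isg15 itself could not be read, but 5 of 6 genes that attach it or remove it were. Of these 4 were at least 2-fold lower on OP9-GFP than on OP9, and the same 4 on OP9-DL, beside 6.75% and 6.92% of all probes compared. The median log2 differences were -1.21 and -1.57. These genes too were listed with earlier results of these data known, so their counts are a description only. Usp18, which removes Isg15 and damps the interferon receptor, was the furthest apart, at 968.5 on OP9, 45.2 on OP9-GFP and 71.2 on OP9-DL. Trim25, a ubiquitin ligase that can also use Isg15, read 380.8, 38.6 and 82.2. The conjugating enzyme Ube2l6 (115.3, 50.8 and 48.9) and the ligase Herc6 (41.4, 17.9 and 13.9, named Herc5 on the array) differed by 2.27-fold and 2.31-fold between OP9 and OP9-GFP. The activating enzyme Uba7 stood apart from these with near-equal readings of 14.2, 14.5 and 16.6.

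Cmpk2, a mitochondrial nucleotide kinase that supplies the substrate of viperin and is the next protein-coding gene to Rsad2 on chromosome 12, read differently from Rsad2, at 27.9 on OP9, 2.3 on OP9-GFP and 3.4 on OP9-DL. Its mean was under the brightness limit, and with the dim readings raised to the limit the parental excess was 4.55-fold over each modified line.

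Upstream of the effectors, the interferon genes with probes were dim and similar between arrays. Ifnb1, interferon beta, read 6.4 on OP9, 6.4 on OP9-GFP and 6.3 on OP9-DL, and Ifna2 read 7.1, 8.8 and 7. Ifne (8.6, 12.1 and 11), Ifng (4.7, 5.2 and 5.9) and Ifnk (blank, 1.6 and 1.8) were not highest on OP9 either. The receptor chains Ifnar1 (53.5, 45.6 and 38.9) and Ifnar2 (46.8, 42.6 and 31.9) and the kinases Jak1 (410.4, 305.4 and 356.4) and Tyk2 (155.6, 97.1 and 95.3) stayed within 2-fold. Readings this close to the limit, as for the interferons, show only that no difference was detectable with these probes.

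Of the transcription factors that drive the effectors, Irf7, Stat2, Irf9 and Irf1 were at least 2-fold lower on both modified lines. Irf7, the inducible regulator that Oasl1 restrains, read 424.4 on OP9, 14.2 on OP9-GFP and 31.6 on OP9-DL. Stat2 read 355, 31.6 and 72.5, and Irf9 read 240.4, 44.2 and 80.5. For these 3, as for Oas1a, OP9-DL lay between the other lines, and Irf7 and Stat2 were 2.23-fold and 2.29-fold above OP9-GFP. Irf1 (231, 54.2 and 34.7) had OP9-DL lowest. Irf3 (243.3, 244.9 and 297.3), Irf2 (20.5, 11.3 and 13.5) and the feedback inhibitor Socs1 (42.3, 35.2 and 47.2) stayed within 2-fold. The list of interferons, receptor chains, kinases, these factors and Socs1 had 14 genes compared, with a median of -0.35 for OP9-GFP minus OP9. Of the 14, 4 were at least 2-fold lower on OP9-GFP and 0 higher, beside 6.75% and 4.86% of all probes. The same 4 were lower on OP9-DL, beside 6.92%. In OP9-DL minus OP9-GFP 2 of the 14 were higher and 0 lower, beside 2.31% and 2.73%. This list too was chosen with earlier results known, so these counts are a description only.

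Of 30 other interferon-induced genes compared, 25 were at least 2-fold lower on OP9-GFP than on OP9 and 0 higher, beside 6.75% and 4.86% of all probes. Their median was -2.59. This list, like the members, was chosen with earlier results of these data known, so the gap between these shares supports nothing. The 3 lowest were Ifi44 (324.4 on OP9, 12.1 on OP9-GFP and 2.5 on OP9-DL), Mx2 (39.8, 2.7 and 2.2) and Parp9 (240.1, 16.4 and 23.1). The place of Mx2 rests on a reading under the brightness limit: its parental excess over OP9-GFP was 14.7-fold as deposited and 6.49-fold with that reading raised to the limit. At the other end stood Mx1 (6.6, 8.2 and 7.9), which RefSeq lists as a transcribed pseudogene in this build, Samhd1, a nucleotide-depleting restriction factor (1136.8, 841.9 and 879.2), and Ifi27 (1485, 1026 and 2370.4). In OP9-DL minus OP9-GFP this list had 4 lower and 2 higher with a median of -0.05, beside 2.73% lower and 2.31% higher of all probes. The 4 lower ones were Psmb8 (1449.2, 112.2 and 13.3), Parp12 (256.4, 49.8 and 16.5), Ifi44 and Sp100 (138.2, 10.2 and 3.1). The OP9-DL readings of Ifi44 and Sp100 lay under the limit, and with them raised to it only Psmb8 and Parp12 were counted, 2 in all. The 2 higher ones were Adar (83.6, 9.5 and 21.6) and Ifi27.

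**Figure D5:**
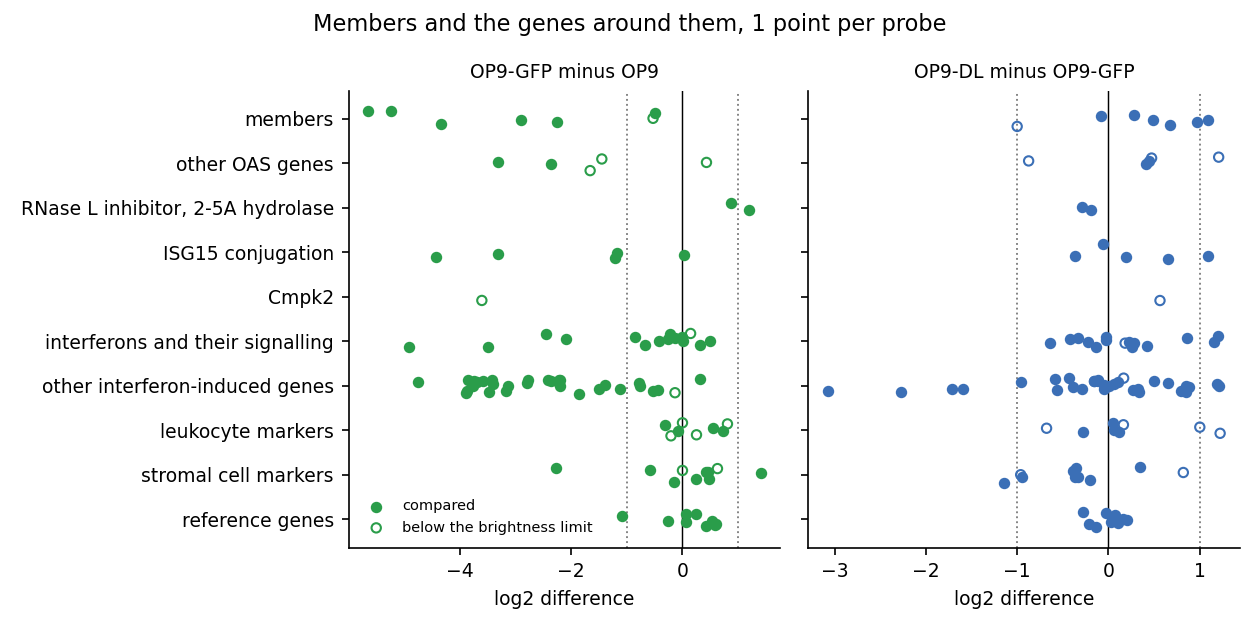
log2 differences of OP9-GFP minus OP9 (left) and OP9-DL minus OP9-GFP (right) for the probes of 10 gene lists with a value on all 3 arrays; filled points were bright enough to be compared, open points were not, and dotted lines mark 2-fold. On the left the members, the OAS relatives, the Isg15 enzymes, the interferon signalling genes and the other interferon-induced genes reach far below -1. So do Cmpk2, an open point, and the stromal marker Pdgfra, while leukocyte markers stay within 2-fold. On the right most members lie between 0 and 1.10.

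The genes with the pattern most like the members' were found by the distance of each gene's 3 log2 values, centred on their own mean, from the mean of the 7 members. Over 3 arrays such a distance is a description with little power to sort genes. Among 11489 probes of other named genes the nearest 5 were Ociad2 (29.2 on OP9, 3.3 on OP9-GFP and 4.2 on OP9-DL), Trim12c (84.1, 10.5 and 14.5), Tap2 (337.4, 47 and 52.3), Oas1c and Rtp4 (1548.5, 183.3 and 283). Ociad2 on both modified lines and Oas1c on OP9-GFP read under the brightness limit, so their places rest in part on dim readings. Of the members, Oasl2 lay nearest the mean pattern at a distance of 0.21, and Rsad2 (2.06, with a smaller parental excess) and Ifit3 (1.91, with a larger one) lay furthest.

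Checks of cell type and scaling were made beside these results. Of 11 leukocyte markers with a probe, 4 reached the brightness limit on any array, and these split evenly in direction. Csf1r (24.8 on OP9, 19.9 on OP9-GFP and 20.6 on OP9-DL) and Siglech (27.2, 25.6 and 26.6) were highest on OP9, while Cd68 (29.4, 42.9 and 46.3) and Cpa3 (4.9, 8.1 and 6.7) were lowest there. The defining markers Ptprc (2.1, 2.5 and 2.8), Itgam (3.2, 3.2 and 2) and Adgre1 (1.3, 1.1 and blank) were under the limit throughout. So were Fcgr1 (3, 2.6 and 5.2), Cd3e (1.2, 2.1 and 4.9), Kit (1.6 on OP9 alone) and Fcer1a (1.6, blank and 1.6). The summed intensity of all 11 was 100.3 on OP9, 108 on OP9-GFP and 116.7 on OP9-DL.

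Of 10 stromal cell markers 8 reached the limit. For OP9-GFP minus OP9, 1 was at least 2-fold lower and 1 higher, beside 6.75% lower and 4.86% higher of all probes compared. Pdgfra, a receptor of mesenchymal cells, moved in the members' direction, at 800.6 on OP9, 166.1 on OP9-GFP and 127.1 on OP9-DL, a parental excess of 4.82-fold and 6.30-fold. Col1a1, a collagen chain, went the other way (269.3, 712.9 and 557). Vim (18420, 25328.1 and 32110.4), Col1a2 (6612.6, 5922.4 and 5145.3), Pdgfrb (418.3, 277.8 and 221.1), Sparc (2099, 2808.2 and 1453.1), Cxcl12 (3720.4, 4411.3 and 1997.4) and Lum (5.4, 7.5 and 5.8) stayed within 2-fold of OP9. Thy1 (1.1, 1.7 and 3) and Dcn (3.7, 3.7 and 1.9) were under the limit. The part of these markers' differences in those of the members was not tested. Of 9 probes of reference genes 8 were within 2-fold for OP9-GFP minus OP9, with a median of 0.25, and the exception was B2m (15601.7, 7336.5 and 7175.7), itself induced by interferon.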

How the data were processed

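RNA of 3 OP9 lines was measured on 1 array each. Total RNA, per the labels' protocols, was isolated on columns, amplified with amino allyl nucleotides, labelled with Cy5 and fragmented as the maker (Toray) directs. The deposited values are linear probe intensity, which the authors scaled to a median of 20 per array, as the values show. Not given in the sources used here: the background correction and the rule for blank cells (6.32% to 6.62% of readings). Each array held 21920 to 21989 readings, and the number of arrays, 3, limits the precision.

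Intensities were used without further normalization, as log2 with no constant. A value on every array was available for 20775 probes, and the 15581 of these at or above the 25th percentile of the mean log2 value were compared, with 2-fold as the threshold. Names came from the platform's gene table (16631 probes with 1 symbol), with symbols updated through RefSeq (3947 renamed). The genes named were all members, all listed relatives and partners with a value, and the 3 lowest and highest of the other interferon-induced genes. Also named were the 5 nearest genes in pattern and the leukocyte and stromal markers with a probe. Psmb8, Sp100, Parp12, Adar, B2m, Ifit3b and Oas1g were added after their values or sequences were seen. Members and lists were chosen with earlier results of these data known. The alternatives were quantile, median and lowess (span 0.3) scaling, no limit or one at the 50th percentile, dim readings raised to the limit, a constant of 1.6, blanks at the array's lowest reading, the brightest probe per gene, and thresholds of 1.5-fold and 3-fold. The procedure was tested on simulated data. Software was pandas 2.3.3 and numpy 2.4.6 under Python 3.11.15, with statsmodels 0.14.6 for lowess and matplotlib 3.10.9 for plots.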

Additional observations from a re-analysis of the deposited data

How the results depend on the processing

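No paired analysis was possible because each line has 1 array, and no replicate could be left out. Without replicates a value was taken as moved at a change of more than 1.5-fold. The members' count of 5 lower, 0 higher in both comparisons with OP9 moved by no more than 1.5 times under any alternative run, and no called difference changed sign. The median of OP9-GFP minus OP9 went from -3.61 to -2.90 without the limit on dim probes or with blanks at the lowest reading, where Ifit2 enters as a seventh member, and to -4.33 with the limit at the 50th percentile, where Oasl1 leaves. For OP9-DL minus OP9-GFP, 1 member (Ifit2) was lower with no limit, beside 3.2% of 20775 probes, or with blanks filled, where no share was computed. Both of these Ifit2 readings lay under the brightness limit, and their difference came to 0 when raised to it. The higher members were 3 at 1.5-fold and 0 at 3-fold, thresholds at which no share of all probes was computed. By gene, Ifit3 ranged from -5.64 to -5.28 and Oas1a from -4.36 to -4.30 for OP9-GFP minus OP9, and Ifit2 from -1.61 to -0.29 for OP9-DL minus OP9. Dim signal limits Ifit1, Ifit2 and Oas3, whose readings allow no firm fold.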

Other observations

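Neighbouring genes of these families were set side by side, and the pairs below were picked after their values were seen. Ifit2 and Ifit3 have no protein-coding gene between them on chromosome 19. For OP9-GFP minus OP9 the log2 difference was -0.53 for Ifit2 and -5.64 for Ifit3. The Ifit2 probe was too dim to be compared, so its value is no firm fold and the gap between the pair is not a measured one. Oasl1 and Oasl2, neighbours on chromosome 5, were closer to each other, at -2.25 and -2.90. Each gene has 1 probe, so a difference between neighbours cannot be told apart from a difference between their probes.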
